A study of Mus musculus with 2 samples.

Results

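The 10 genes described here, Hspa5, Hsp90b1, Calr, Pdia4, Xbp1, Atf4, Ddit3, Creb3l1, Sec61b and Herpud1, belong to the secretory pathway and its stress responses. They were taken by name from a fixed list, chosen with earlier results of these data known. All were found among the 33757 features of the count table, and all entered the tests. The cells were NIH3T3-Rev-VNP1-H2B-iRFP fibroblasts, a derivative of the mouse NIH3T3 line that reports the clock gene Nr1d1 by Venus fluorescence and marks nuclei with H2B-iRFP, a far-red histone tag. The culture had reached 95% confluency after about 5 days, with no synchronization, and the labels name no treatment, so the labels set the groups apart only by sort gate and plate. Living cells were sorted 1 to a well, with 384 wells a plate, by 4 ranges of Nr1d1-Venus brightness (the Venus bins) and 2 of H2B-iRFP brightness, and their RNA was sequenced by FLASH-seq, which reads full-length transcripts. The sort record placed all cells of the high RFP sort on plate 1 and all of the low RFP sort on plate 2, so plate and iRFP sort cannot be told apart. Bin and well position cannot be told apart either, as a Venus bin occupied a fixed block of 6 columns on either plate. The question put to these genes was whether their level followed the Venus axis, from bin 1 (dim) to bin 4 (bright), and how they varied from cell to cell.

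Secreted and membrane proteins enter the endoplasmic reticulum (ER) through the Sec61 channel and are folded there by chaperones and disulfide isomerases. When unfolded protein builds up, the sensors IRE1, PERK and ATF6 start the unfolded protein response: IRE1 splices Xbp1 mRNA, ATF6 is cut by proteases and enters the nucleus, and PERK phosphorylates eIF2 alpha, which favours translation of ATF4. ATF4 is also raised by other eIF2 alpha kinases, for instance when amino acids run short, and is therefore the effector of a wider integrated stress response. Fibroblasts secrete large amounts of collagen and fibronectin, and use this machinery without any added stress.

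The cell type was checked first. All 11 fibroblast markers were present, with a summed level of 23320 to 29430 CPM (counts of a gene scaled to a library total of 1e6) in the 8 sums of cells per plate and bin. The summed level of 6 leukocyte markers was 6.35 to 12.7 CPM, most of it Lyz2, and Ptprc had 1 count in all. The 3 endothelial markers measured summed to 0.514 to 2.02 CPM and the 3 epithelial ones to 26.0 to 44.2 CPM, most of it Krt14, with 2 counts in all for Epcam. After filtering, 762 of 768 cells remained, 383 on plate 1 and 379 on plate 2, with 151173 to 1618022 counts each. The sums held 76042157 to 86612194 counts. The reporter followed the sort: YFP rose from 19.5 to 678 CPM over the bins of plate 1 and from 23.7 to 685 CPM on plate 2, and Nr1d1 from 60.9 to 1266 and from 68.7 to 1169 CPM. The summed level of 15 S phase genes was higher in bin 4 than in bin 1 on both plates, at 278 and 540 CPM on plate 1 and 345 and 511 CPM on plate 2, and the part of the cell cycle in the results that follow was not tested. Cells of 1 plate were sorted and processed together, and nothing in the labels says that the plates came from separate cultures, so p-values measure the spread between these sums, which may be technical.

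ATF6 and XBP1 are known to act through short promoter elements of chaperone genes, and the stretches that hold their letters are shown as a description. Their part in the levels and correlations given below was not tested. In the 250 bases before the start of transcription in the RefSeq windows (GRCm38.p6, while the counts were made on GRCm39), 9 of the 10 genes had an entry, and 4 motifs were searched on both strands. The ER stress element (CCAAT, any 9 bases, CCACG) was found in 3 of the 9, Hspa5, Calr and Hsp90b1, against 0.113% of all 32851 windows, and Hsp90b1 held 2 matches. The ER stress element II (ATTGG, any base, CCACG), a related element, was found in Herpud1 and in 0.0304% of windows. In the stretches below, read 5′ to 3′ on the strand of the gene, the capitals mark the fixed letters of these elements, which read CGTGG and ATTGG where the match lies on the opposite strand. The Hspa5 stretch lies at chr2:34772020-34772048 (plus strand), that of Calr at chr8:84847050-84847118 (minus), that of Hsp90b1 at chr10:86705508-86705681 (minus) and that of Herpud1 at chr8:94386352-94386412 (plus).
Hspa5: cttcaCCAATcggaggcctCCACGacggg
Calr: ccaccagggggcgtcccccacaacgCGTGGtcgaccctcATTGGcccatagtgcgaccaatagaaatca
Hsp90b1: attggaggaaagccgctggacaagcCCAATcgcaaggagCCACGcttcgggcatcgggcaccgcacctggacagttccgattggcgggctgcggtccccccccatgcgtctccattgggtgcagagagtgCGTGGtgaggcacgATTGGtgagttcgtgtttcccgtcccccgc
Herpud1: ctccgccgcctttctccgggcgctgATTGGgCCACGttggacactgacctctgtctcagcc
The core of the unfolded protein response element (TGACGTG) was found in Hspa5 alone among the 9, and in 1.65% of windows. The core of the amino acid response element (TGATG, any base, AA), to which ATF4 binds in other genes, was found in Herpud1 and in 3.45% of windows. A match describes the letters in this window and is not a measured binding site.

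Per kilobase of exon (exon lengths from GENCODE vM21 on GRCm38), mean levels over the 8 sums were compared between the genes. Hspa5 was highest at 351 CPM per kb (333 to 372), followed by Hsp90b1 at 288 (260 to 325) and Sec61b at 278 (265 to 296), whose ranges overlapped. Atf4 at 150 (128 to 166) and Calr at 146 (133 to 165) overlapped as well, as did Pdia4 at 114 (103 to 129) and Xbp1 at 102 (98 to 106). Ddit3 came next at 72.3 CPM per kb, with the widest relative range of the 10 genes (highest over lowest sum 2.18), from 45.8 to 99.7, which reached into that of Xbp1. Herpud1 at 37.7 (30.2 to 43.1) and Creb3l1 at 3.79 (2.65 to 5.35) were lowest, and their ranges overlapped with no other gene.

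Along the Venus axis, 5 of the 10 genes passed the trend test, 4 of them lower and 1 higher toward bright Venus. Of the 18430 genes tested, 15.4% passed it (8.64% lower and 6.78% higher). That share was not matched in abundance to the 10 genes, which were chosen with earlier results of these data known. Of all calls 56% were lower, and 42.2% with library totals in place of TMM scaling. The largest changes were in the stress-induced transcription factor Ddit3 and in Creb3l1, which both fell, and in Herpud1, which rose. The chaperones Hspa5 and Pdia4 fell by small amounts, and Hsp90b1, Calr, Xbp1, Atf4 and Sec61b did not pass the test. Trends are log2 changes per step between bins, from edgeR's quasi-likelihood test on the 8 sums with the plate in the model, and adjusted p-values run over all genes tested. The median trend was -0.043 over the 10 genes and 0.0005 over all genes tested. In the test of any difference among the bins, which needs no steady direction, 1 of the 10 genes passed, Ddit3, against 8.37% of all genes. DESeq2 called 5 of the 10 in its own test of any difference, for which the share of all genes was not counted. Each of the 10 had the same sign of trend on each plate alone. With no plate term in the model, 1 of the 10 passed the trend test, Creb3l1, and 1683 of all genes did.

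**Figure D1:**
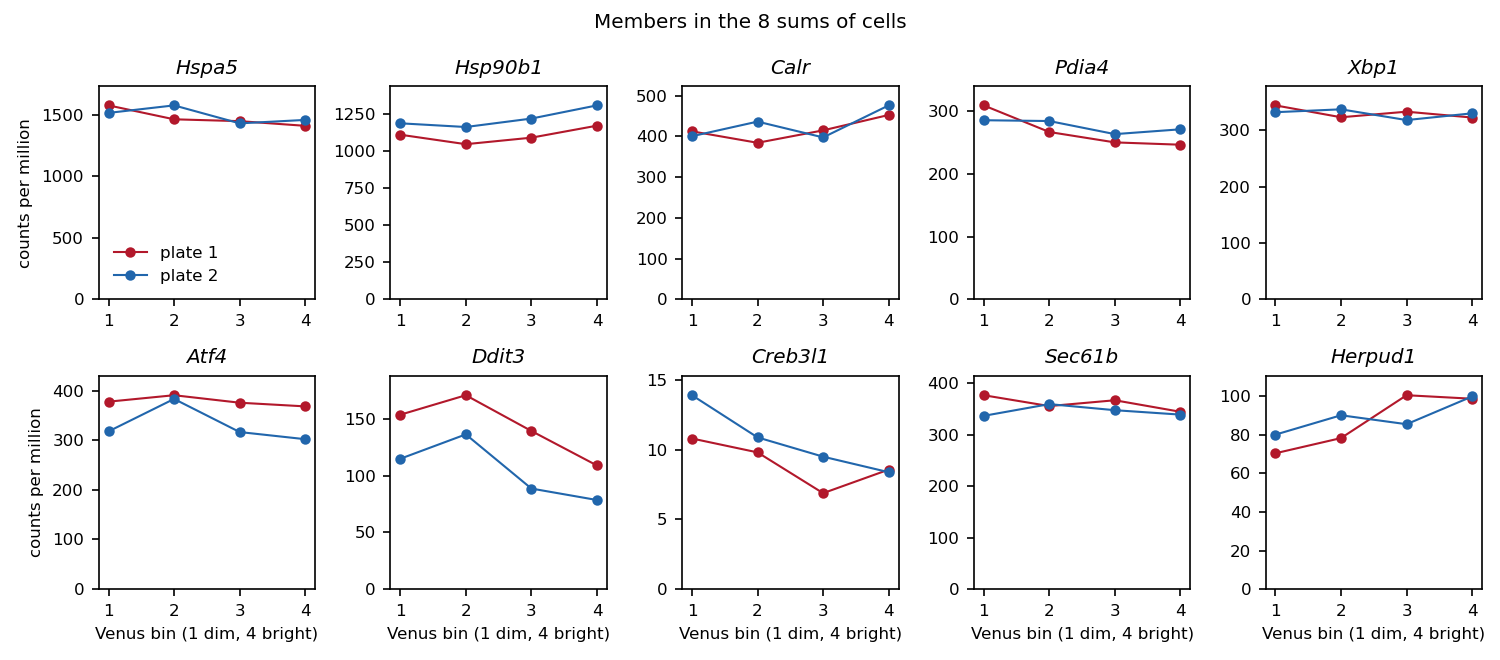
CPM of each of the 10 genes (vertical axis, from 0) in the 4 Venus bins (horizontal axis, 1 dim to 4 bright), with 1 point per sum of cells, plate 1 in red and plate 2 in blue. Ddit3 lies highest in bin 2 and lowest in bin 4 on both plates, Herpud1 is lowest in bin 1, and the chaperones are nearly level.

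Hspa5 (ENSMUSG00000026864.14) encodes BiP, the Hsp70 chaperone of the ER lumen and the inhibitor that holds the stress sensors inactive. Its level from bin 1 to bin 4 was 1574, 1461, 1446 and 1408 CPM on plate 1 and 1513, 1574, 1428 and 1456 CPM on plate 2. Bin 1 was above bin 4 on both plates with no overlap, but bin 2 of plate 2 matched the highest value. The trend was -0.058 ± 0.015 (SE, n = 8 sums), with an adjusted p of 0.0432 by edgeR. This call was lost with library totals in place of TMM scaling (-0.040, adjusted p = 0.102), with limma on mean log2 values over cells (adjusted p = 0.236), with an additive linear model (0.0578) and when any 1 of the 4 bins was left out (adjusted p of 0.067 to 0.299 by edgeR).

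Pdia4, a protein disulfide isomerase of the ER with several thioredoxin domains (ENSMUSG00000025823.10), had the same direction. It was at 309.6, 267.1, 250.5 and 246.8 CPM on plate 1 and at 285.9, 284.6, 263.7 and 271.4 CPM on plate 2. The decline was steady on plate 1 and slight on plate 2, with lone-plate trends of -0.133 and -0.042. The joint trend was -0.088 ± 0.023 (adjusted p = 0.0385, edgeR), and it too lost its call with library totals (-0.071, adjusted p = 0.0574), with limma (adjusted p = 0.0762) and without any 1 bin (adjusted p of 0.0674 to 0.154).

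The other 2 chaperones pointed the other way. Hsp90b1 (ENSMUSG00000020048.14), which encodes GRP94, the Hsp90 of the ER, was at 1111, 1047, 1091 and 1172 CPM on plate 1 and 1188, 1163, 1220 and 1309 CPM on plate 2. Bin 4 was highest on each plate, yet bins 1 and 4 overlapped, and the trend of 0.022 ± 0.013 did not pass the test (adjusted p = 0.331, edgeR). Calr (ENSMUSG00000003814.9), the calcium-binding lectin chaperone calreticulin, was at 412.1, 384, 414.5 and 452.3 CPM and at 400.1, 436, 397.2 and 475.8 CPM. Its 2 values in bin 4 lay above all 6 others, and the trend of 0.039 ± 0.020 did not pass (adjusted p = 0.25). Both trends had the opposite sign once bin 4 was left out, at -0.002 for Hsp90b1 and -0.006 for Calr.

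Sec61b (ENSMUSG00000053317.12) encodes the beta subunit of the Sec61 channel. It ranged only from 336.7 to 376.8 CPM over the 8 sums, a ratio of 1.12, with 376.8, 355.7, 367 and 344.6 CPM on plate 1 and 336.7, 359.5, 347.7 and 339.1 CPM on plate 2. Bins 1 and 4 overlapped, and the trend of -0.036 ± 0.018 did not pass the test (adjusted p = 0.239, edgeR).

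Herpud1 (ENSMUSG00000031770.17), an ER membrane protein of the degradation machinery that removes misfolded proteins and is itself induced by ER stress, was the 1 gene of the 10 that rose. It was at 70.41, 78.28, 100.5 and 98.68 CPM on plate 1 and at 80.07, 90.11, 85.47 and 99.86 CPM on plate 2. Both values in bin 4 were above both in bin 1, and the gain from bin 1 to bin 4 was 1.4-fold on plate 1 and 1.25-fold on plate 2. The trend was 0.118 ± 0.030 (adjusted p = 0.0391, edgeR). The median over single cells rose with it, from 61.1 to 93.2 CPM on plate 1 and from 64.9 to 92.2 CPM on plate 2. The call was lost without bin 1, 2 or 4 (adjusted p of 0.287, 0.0538 and 0.186), and remained without bin 3.

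Xbp1 (ENSMUSG00000020484.20), whose spliced mRNA encodes a transcription factor of the unfolded protein response, was the most even of the 10 over the sums, at 318.3 to 344.4 CPM. It was at 344.4, 323.3, 333.2 and 322.8 CPM on plate 1 and 332.3, 337.4, 318.3 and 330.3 CPM on plate 2. The trend was -0.035 ± 0.016 (adjusted p = 0.202, edgeR). Gene counts do not separate spliced from unspliced Xbp1, so IRE1 activity was not measured.

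Atf4 (ENSMUSG00000042406.9), the effector of the integrated stress response, was at 377.6, 390.6, 375.5 and 368.1 CPM on plate 1 and at 317.7, 383.1, 316.4 and 302 CPM on plate 2. Bin 2 was highest and bin 4 lowest on both plates, and the plates differed more than bins 1, 3 and 4 did. The trend of -0.051 ± 0.020 did not pass the test (adjusted p = 0.14, edgeR). ATF4 is controlled largely at translation, which these data do not measure.

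Ddit3 (ENSMUSG00000025408.16) encodes CHOP, a transcription factor that ATF4 induces and that is known for promoting cell death under lasting stress. It had the lowest adjusted p of the 10 genes. Its level was 153.6, 170.8, 139.3 and 108.9 CPM on plate 1 and 114.8, 136.3, 88.57 and 78.47 CPM on plate 2. On both plates bin 2 was highest, bin 3 lower and bin 4 lowest, and bins 1 and 4 did not overlap. The trend was -0.220 ± 0.023 with an adjusted p of 0.00208, and the test of any difference gave an adjusted p of 0.0065 (edgeR). The fitted level in bin 4 was 0.67 times that in bin 1, and the fit set bin 2 above bin 1 by 0.19 on the log2 scale. The call rests on bin 4: without it the trend was -0.133 (adjusted p = 0.133). It was also lost without the plate term in the model (adjusted p = 0.159). Of its 1713 exonic bases, 68 overlap Mars on the opposite strand in GENCODE vM21, and as the use of strand in counting is not given in the sources used here, reads there cannot be told apart.

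Creb3l1 (ENSMUSG00000027230.10), also called OASIS, is a membrane-bound transcription factor of the ATF6 type that is cut by the same proteases and is known for driving collagen genes in bone. It was the least abundant of the 10, at 10.82, 9.822, 6.892 and 8.584 CPM on plate 1 and 13.93, 10.9, 9.514 and 8.399 CPM on plate 2. Bin 1 was highest on each plate and above both values of bin 4. The trend was -0.211 ± 0.045 (adjusted p = 0.0211, edgeR), and the test of any difference gave an adjusted p of 0.0683. Leaving out bin 1 (-0.165, adjusted p = 0.252) or bin 4 (-0.304, adjusted p = 0.0706) ended the call. A count was found in 65.8% of cells on plate 1 (95% Clopper-Pearson interval 60.8 to 70.5) and 74.4% on plate 2 (69.7 to 78.7), and in 59% and 64.7% after each cell was thinned to 300000 counts. Per bin the thinned share was 65.3%, 57.3%, 52.1% and 61.5% on plate 1 and 67.4%, 67.4%, 65.6% and 58.5% on plate 2, so bin 1 had the highest share on each plate, tied with bin 2 on plate 2.

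The other genes of the pathway were taken from lists by function. In 6 lists of the secretory and stress pathways, 30 of 99 genes tested (30.3%) passed the trend test, against 15.4% of all genes. These lists, too, were chosen with earlier results of these data known, and the share of all genes was not matched in abundance. The count in the lists was 4 without bin 4 and 13 without bin 1, where 376 and 1145 of all genes passed. The median trends of the lists lay between -0.049 and 0.010, and 5 of the 6 lists held called genes in both directions. Among 13 other ER chaperones and folding enzymes tested, 3 rose and 2 fell (median -0.001). The co-chaperone Dnajc3, which restrains PERK, rose from 52.9 to 75.9 CPM and from 65.2 to 85.9 CPM between bins 1 and 4 on plates 1 and 2 (trend 0.129 ± 0.022, adjusted p = 0.0104), and Dnajb11 rose by 0.067 per bin, a call lost without bin 1, 2 or 4 (0.005, adjusted p = 0.955, without bin 4), with no plate term (0.116) and with the additive model (0.118). The nucleotide exchange factors of BiP fell: Hyou1, with a trend of -0.143 ± 0.024 (adjusted p = 0.00942), went from 94.6 to 72.3 CPM and from 96.9 to 79.3 CPM, and Sil1 had a trend of -0.135 ± 0.024 (adjusted p = 0.0112). Dnajc3 and Hyou1 did not pass without bin 1 (adjusted p of 0.238 and 0.0711) or without bin 4 (0.0802 and 0.0816), nor Sil1 without bin 4 (0.147).

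Of 12 genes of ER-associated degradation tested, 5 fell and 1 rose (median -0.026). The lectins Os9 (-0.096 ± 0.018, adjusted p = 0.0131) and Erlec1 (-0.082), which recognise misfolded glycoproteins, fell, and Derl1, a channel component, rose (0.083 ± 0.016, adjusted p = 0.0134). Derl1 was lowest in bin 1 on both plates, at 334 and 349 CPM, and between 412 and 444 CPM in the other bins, so its trend had the opposite sign without bin 1 (-0.016). Os9 and Erlec1 did not pass without bin 1 (adjusted p of 0.0636 and 0.169) or bin 4 (0.134 and 0.216). By edgeR, Erlec1 also lost its call with no plate term (adjusted p = 0.0692), and Derl1 with the additive model (0.144). Among 21 genes of the translocon and signal peptide processing, 4 fell and none rose by edgeR (median -0.049). Tram1, which helps nascent chains into the channel, fell from 166 to 131 CPM and from 185 to 149 CPM (-0.130 ± 0.016, adjusted p = 0.00305), and the signal peptidase subunit Spcs3 had a trend of -0.129 ± 0.028 (adjusted p = 0.0228). Tram1 was lowest in bin 3 on both plates (121 and 138 CPM), and its trend was -0.045 without bin 1 (adjusted p = 0.351). Spcs3 did not pass without bin 1, 3 or 4 (adjusted p of 0.1, 0.0512 and 0.133).

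Genes of transport out of the ER were called in both directions. Of 21 genes of the COPII coat and ER-to-Golgi transport, 4 rose and 1 fell (median 0.010). Sec13, a subunit of the outer COPII coat, rose from 224 to 320 CPM and from 235 to 325 CPM between bins 1 and 4 (0.137 ± 0.017, adjusted p = 0.00342). The KDEL receptor Kdelr3, which returns ER residents from the Golgi, rose by 0.093 ± 0.020 per bin (adjusted p = 0.0199), with a sign that turned without bin 4 (-0.020), and Sec13 lost its call there (0.092, adjusted p = 0.158). Kdelr3 also lost its call with the additive model (adjusted p = 0.132, edgeR). The coat subunit Sec24b fell (-0.080, adjusted p = 0.0334), a call lost without bin 1 (-0.010, adjusted p = 0.9), 3 or 4, with library totals (0.0749), with limma (0.109) and with the additive model (0.119). Of 11 ER stress sensors and membrane-bound factors, 1 rose and 1 fell. Mbtps1, the site-1 protease that cuts ATF6 and its relatives, rose from 124 to 193 CPM and from 121 to 203 CPM (0.204 ± 0.019, adjusted p = 0.00151), and Creb3l2, the closest relative of Creb3l1, fell (-0.082, adjusted p = 0.0401). Without bin 4 neither passed, at 0.139 (adjusted p = 0.0717) for Mbtps1 and -0.029 (adjusted p = 0.752) for Creb3l2, and Creb3l2 did not pass without bin 2 or 3 either (adjusted p of 0.0622 and 0.0534). The call of Creb3l2 was also lost by edgeR with library totals (0.0827), with no plate term (0.0668) and with the additive model (0.0831).

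The targets of ATF4 and the integrated stress response split. Of 21 tested, 6 fell and 2 rose (median -0.016). Trib3, a pseudokinase induced by ATF4 and CHOP, was at 130, 129, 92.9 and 62.2 CPM on plate 1 and 84.4, 87.9, 49.9 and 39.8 CPM on plate 2. Bins 1 and 2 were alike and bins 3 and 4 lower on both plates, with a trend of -0.403 ± 0.026 (adjusted p = 0.000428, edgeR). Ddit4, an inhibitor of mTORC1, fell as well (-0.274 ± 0.043, adjusted p = 0.00709). The 2 genes that rose encode enzymes of amino acid synthesis. Psat1 of the serine pathway went from 308 to 452 CPM and from 272 to 382 CPM (0.146 ± 0.016, adjusted p = 0.00217). Asparagine synthetase, Asns, rose by 0.070 ± 0.020 (adjusted p = 0.0499), with the opposite sign without bin 1 (-0.022). Other enzymes of amino acid metabolism in the list did not pass by edgeR. They were Phgdh (0.024, adjusted p = 0.514), Shmt2 (0.006, adjusted p = 0.88) and Aldh18a1 (-0.050, adjusted p = 0.422). Psat1 did not pass without bin 1 (0.098, adjusted p = 0.0798), nor Ddit4 without bin 4 (-0.150, adjusted p = 0.107), nor Asns without bin 3 or 4. With no plate term, neither Psat1 (adjusted p = 0.0609, edgeR) nor Asns (0.54) passed. Asns was lost as well with limma (0.0862) and with the additive model (0.225). Trib3 passed without each bin in turn, and not with the plate term left out (adjusted p = 0.0757).

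Among 15 genes of secreted matrix cargo, 7 fell and 2 rose (median -0.071). The proteoglycan Bgn fell from 5310 to 1830 CPM and from 4140 to 1630 CPM (-0.515 ± 0.026, adjusted p = 0.000136), and fibronectin, Fn1, had a trend of -0.259 ± 0.020 (adjusted p = 0.000877). Timp1 (0.125) and Sparc (0.083) rose, but Timp1 was at 0.031 without bin 4 (adjusted p = 0.787) and lost its call without bin 1 (0.0682), and Sparc was at 0.015 without bin 1 (adjusted p = 0.699) and lost its call with the additive model (0.0604) and with no plate term (0.124). Timp1 lost its call with the additive model as well (adjusted p = 0.0583, edgeR). Bgn and Fn1 passed without each bin in turn. The summed level of the 15 cargo genes went from 34659 to 25016 CPM on plate 1 and from 31713 to 25886 CPM on plate 2. Of the cell cycle genes, 9 of 15 S phase genes (median 0.281) and 6 of 19 G2/M genes (median 0.167) were higher toward bright Venus and none lower by edgeR, and 13 G2/M genes did not pass. The G2/M trends differed by plate: all 19 were positive on plate 1 alone, and 11 of 19 were negative on plate 2 alone, where the sums ran 547, 787, 354 and 757 CPM over the bins. Their part in the trends of the 10 genes was not tested.

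**Figure D2:**
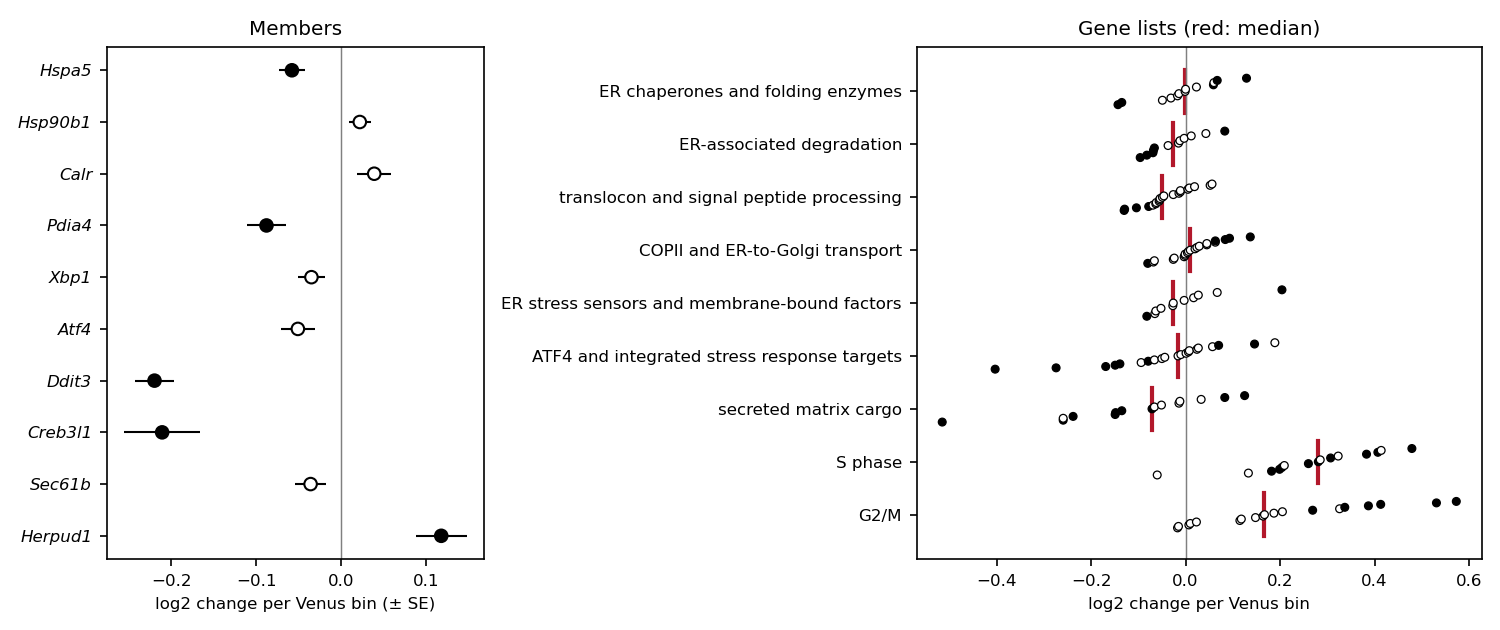
Left, trend of each of the 10 genes (log2 change per Venus bin, bars ± SE from 8 sums). Right, trend of each gene of the 9 lists, with the list's median in red; filled points passed the test at an adjusted p of 0.05 and open points did not. Ddit3 at -0.220 and Creb3l1 at -0.211 lie farthest to the left, and the secretory lists have medians from -0.049 to 0.010.

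Within a plate, single cells differed most in Creb3l1, Ddit3, Herpud1 and Atf4, and least in Sec61b, Xbp1 and the chaperones. The coefficient of variation of CPM over cells was 0.963 on plate 1 and 1.14 on plate 2 for Ddit3, and 0.605 and 0.582 for Atf4. It was 0.612 and 0.581 for Herpud1, 0.381 and 0.372 for Hspa5, 0.324 and 0.357 for Hsp90b1, and 0.29 and 0.293 for Sec61b. Creb3l1 had the highest values, 1.36 and 1.15, at a level where counting error is large.

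Ddit3 spanned the widest range of the genes found in every cell. The 10th percentile, median and 90th percentile were 29.8, 86.3 and 343.8 CPM on plate 1 and 22.5, 58.8 and 288.2 CPM on plate 2. A count was found in all 383 and all 379 cells, so the low cells were not without signal. The cell with the highest value held 1.76% of the Ddit3 counts of plate 1 and 2% of those of plate 2. From bin 1 to bin 4 the median was 120, 90.7, 85.2 and 61.1 CPM on plate 1, a decline at each step, and 55.9, 92.4, 56.4 and 49.9 CPM on plate 2, where bin 2 stood out. The 90th percentile peaked in bin 2 on both plates, at 400 and 359 CPM, and was lowest in bin 4, at 288 and 166 CPM. The lower level of bin 4 was thus present in the middle of the distribution and in its upper part.

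**Figure D3:**
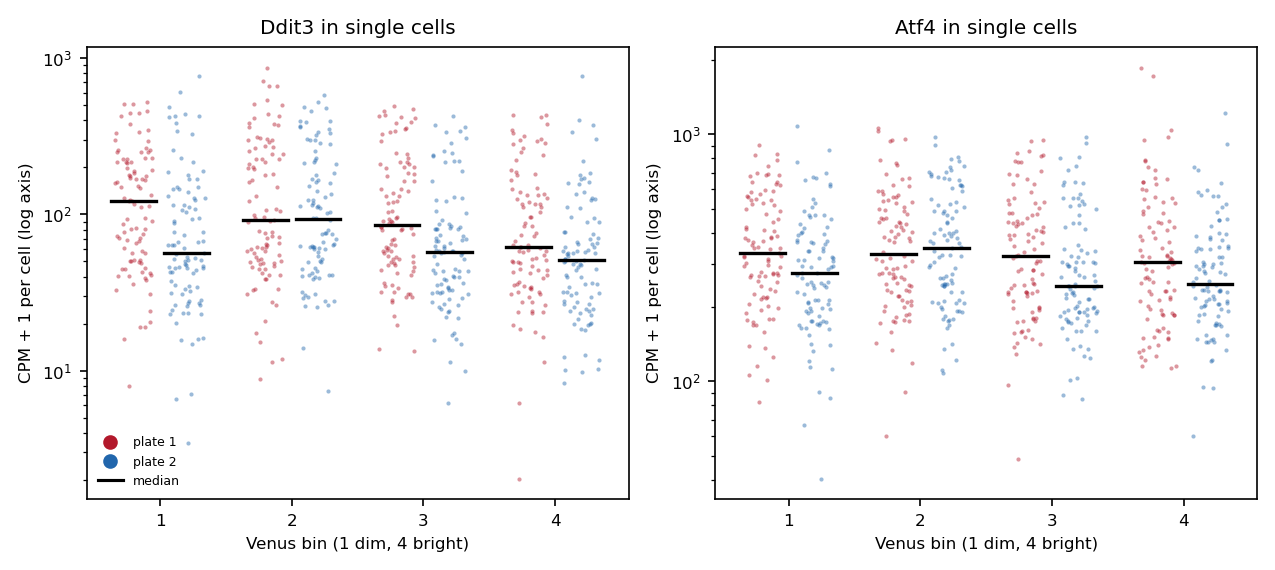
Ddit3 (left) and Atf4 (right) in each cell, as CPM + 1 on a log axis, by Venus bin and plate, with the median as a black bar and sideways scatter added at random. Ddit3 medians run from 49.9 to 120 CPM, while single cells of every bin reach above 400 CPM, and Atf4 medians run from 243 to 347 CPM.

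Across cells, the highest correlation among the 10 genes was between Atf4 and Ddit3, followed by Hspa5 with Calr and Calr with Sec61b. Not all pairs of chaperones stood above the other pairs. Hsp90b1 and Calr were at 0.411 on plate 1 and 0.286 on plate 2, below Atf4 and Herpud1 at 0.445 and 0.424. Over the 45 pairs of genes, the median Spearman correlation of CPM was 0.259 on plate 1 (383 cells, 45 of 45 pairs positive) and 0.19 on plate 2 (379 cells, 41 of 45 positive). The same median over all pairs of the 9053 genes whose mean log2 CPM reached 3 was 0.00953 and 0.00594. This background was not matched in abundance to the 10 genes, which apart from Creb3l1 (3.31) had a mean log2 CPM of at least 6.46. The share of its pairs above 0 was not counted. Correlations are descriptions over cells that share a library, and are given without a p.

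The highest pair was Atf4 and Ddit3, at 0.70 on plate 1 and 0.637 on plate 2. It was 0.69 and 0.612 with cells ranked within their Venus bin, and 0.683 and 0.619 in thinned cells. Herpud1 stood nearest to this pair, at 0.445 and 0.424 with Atf4 and 0.368 and 0.395 with Ddit3, although Herpud1 rose along the Venus axis where Ddit3 fell. Among the chaperones and Sec61b, Hspa5 correlated with Calr at 0.648 and 0.589, with Sec61b at 0.541 and 0.481, with Hsp90b1 at 0.525 and 0.473, and with Pdia4 at 0.496 and 0.499. Hspa5, Calr and Hsp90b1 are the genes with the ER stress element letters printed above, and neither Pdia4 nor Sec61b had a match in its window. Calr correlated with Sec61b at 0.557 and 0.51, and with Hsp90b1 at 0.411 and 0.286. A relation between the letters and the correlations was not tested.

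Pairs of a chaperone with Atf4 or Ddit3 overlapped in value with pairs of chaperones: on plate 1 Hspa5 and Atf4 were at 0.386 and Hsp90b1 and Pdia4 at 0.36. Hspa5 correlated with Atf4 at 0.386 and 0.229, and with Ddit3 at 0.276 on plate 1 and 0.0698 on plate 2. Hsp90b1 and Ddit3 were at 0.144 and -0.123. Xbp1 was closest to Hspa5, at 0.361 and 0.422, and was near 0 with Atf4, at 0.116 and 0.0571. Creb3l1 correlated with Hspa5 at 0.257 and 0.163 and with Ddit3 at 0.0115 and -0.049, and its low counts limit what its correlations can show.

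**Figure D4:**
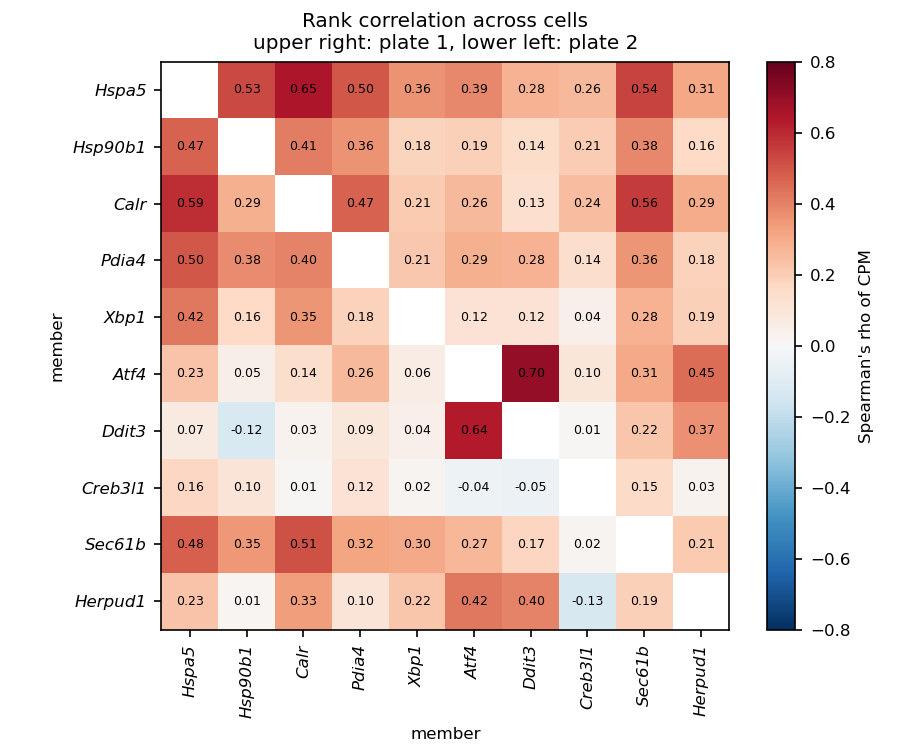
Spearman correlation of CPM across cells for each pair of the 10 genes, with plate 1 (383 cells) in the upper right and plate 2 (379 cells) in the lower left; red is positive and blue negative. The Atf4 and Ddit3 pair (0.70 and 0.64) and the block around Hspa5, Calr and Sec61b are the darkest squares, and the row of Creb3l1 is pale.

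**Figure D5:**
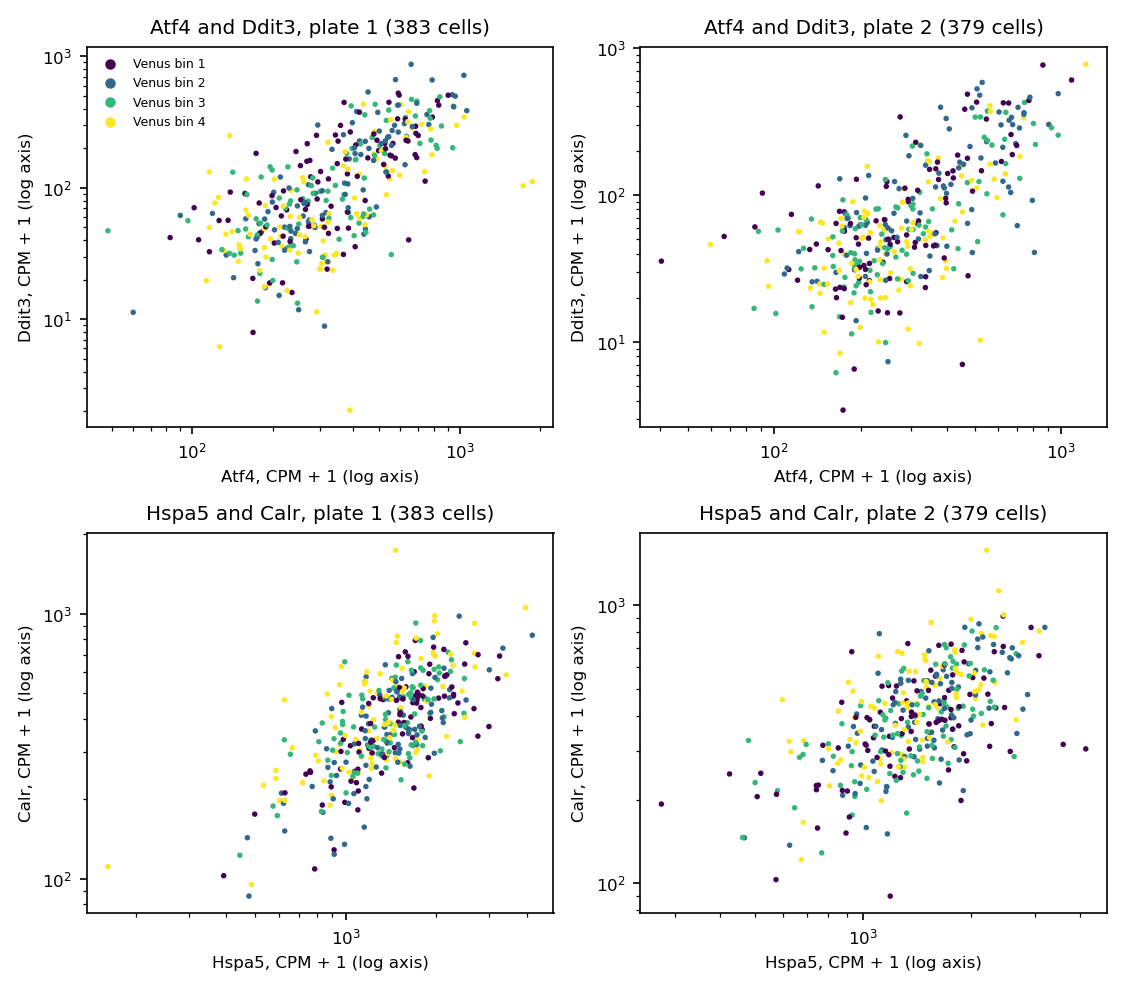
Each point is a cell, coloured by Venus bin: above, Ddit3 against Atf4, and below, Calr against Hspa5, as CPM + 1 on log axes, plate 1 on the left and plate 2 on the right. Both pairs rise together on both plates, with all 4 bins spread along the cloud, and 2 cells of bin 4 on plate 1 lie apart with Atf4 at 1863 and 1722 CPM and Ddit3 at 110.5 and 102.9 CPM.

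Outside the 10 genes themselves, the genes most like the main members were found over 9053 genes by the correlation across cells, ranked within Venus bins and averaged over the plates. For Hspa5 these were Serp1 (0.708), Manf (0.691), Surf4 (0.678), Ssr2 (0.65) and Pdia3 (0.605), while Calr, left out of this ranking as 1 of the 10, was at 0.65 and 0.597 on plates 1 and 2 by the same measure. Serp1 protects membrane proteins at the channel and Manf is a luminal partner of BiP. All 13 chaperones and folding enzymes measured correlated positively with Hspa5 on both plates, with medians of 0.477 and 0.476, where 45.3% of all genes were positive on both. For the 21 genes of COPII transport the count was 21 of 21, with medians of 0.249 and 0.292. The ATF4 targets were positive with Hspa5 on both plates in 17 of 19 genes, with medians of 0.343 and 0.216. For the 11 sensors the medians were 0.0615 and 0.0719. In the sums Surf4, a cargo receptor, rose along the Venus axis (0.063, adjusted p = 0.0197, edgeR) while Hspa5 fell, so in this fit a close relation between cells went with opposite trends. The call of Hspa5 was lost in several settings, as given above, and Surf4 was not followed over the other settings.

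By the same measure Atf4 and Ddit3 were at 0.69 and 0.612 with each other. Outside the 10 genes, the nearest to Atf4 were Mthfd2 (0.683), Nupr1 (0.666), Sars (0.644), Asns (0.628) and Trib3 (0.626), and for Ddit3 they were Sars (0.614), Nupr1 (0.607), Mthfd2 (0.606), Arhgef2 (0.599) and Trib3 (0.588). Mthfd2 is a mitochondrial enzyme of one-carbon metabolism, Sars the seryl-tRNA synthetase, and Nupr1 a stress-induced chromatin protein. Of the 19 listed ATF4 targets at this level, 17 correlated positively with Atf4 on both plates (medians 0.585 and 0.478) and 18 with Ddit3 (0.55 and 0.408), where 36.6% and 36.7% of all genes did. Cebpb was negative with both on both plates, at -0.161 and -0.256 with Atf4. Along the Venus axis these neighbours did not share a trend: Sars (-0.143, adjusted p = 0.00464), Nupr1 (-0.149), Arhgef2 (-0.172) and Trib3 (-0.403) fell, Asns rose by 0.070, and Mthfd2 had a trend of -0.00985 with an adjusted p of 0.918.

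For Creb3l1 the nearest genes were Cbr2 (0.304), Fbn1 (0.3), C1ra (0.29), Pde8b (0.288) and St3gal5 (0.283), all weak. Fbn1, the matrix protein fibrillin, also fell along the Venus axis (-0.221, adjusted p = 0.00733). The 14 genes of matrix cargo measured at this level had median correlations with Creb3l1 of 0.0996 and 0.0493, and Col5a1 had the highest, 0.232 and 0.229.

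Other properties of the cells moved with some of the 10 genes, here with cells ranked over the whole plate unless stated. Hsp90b1 correlated with the summed G2/M genes at 0.318 on plate 1 and 0.426 on plate 2, and with the summed matrix cargo at -0.158 and -0.3. Ddit3 had the opposite pattern, at -0.125 and -0.166 with G2/M and 0.322 and 0.321 with cargo. With cells ranked within Venus bins, Ddit3 was at -0.0804 and -0.137 with G2/M and 0.287 and 0.269 with cargo. The part of Ddit3 in the matrix genes or theirs in Ddit3 was not tested. Pdia4 also followed the cargo sum, at 0.349 and 0.188. The mitochondrial share of counts correlated with Hspa5 at -0.354 and -0.288 and with Pdia4 at -0.255 and -0.333, while for Ddit3 it was -0.0526 and 0.0803. The number of genes detected in a cell correlated with Calr at 0.286 and 0.345, with Hsp90b1 at 0.247 and 0.234 and with Hspa5 at 0.206 and 0.212, and its part in their correlations was not tested. Correlations with the total counts of a cell lay between -0.073 and 0.0838 for all 10 genes on both plates.

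Between the plates, which are also the iRFP sorts, the ATF4 arm stood higher on plate 1. There is 1 sample of each, so the intervals cover the counting error of reads only and no test was made. Ddit3 was at 143.7 CPM on plate 1 and 103.9 CPM on plate 2, a ratio of 1.38 (95% interval 1.36 to 1.4), and Atf4 at 378.2 and 329 CPM, a ratio of 1.15 (1.14 to 1.16). Both were higher on plate 1 in all 4 bins, as were 6.43% of all genes tested. Of the 21 ATF4 targets, 16 were higher on plate 1 in all 4 bins, with a median log2 ratio of 0.250 against -0.059 over all genes, and Chac1, a glutathione-degrading enzyme, had the largest at 0.772. Hsp90b1 was lower on plate 1 in all 4 bins (1103 and 1221 CPM, ratio 0.904), as were 20.2% of all genes, and Creb3l1 in 3 of 4 bins (9 and 10.7 CPM, ratio 0.844, 0.803 to 0.888). The other 6 genes had ratios of 0.971 to 1.04. These ratios use library totals. With TMM factors the log2 ratio was 0.530 for Ddit3, 0.262 for Atf4 and -0.085 for Hsp90b1, in place of 0.468, 0.201 and -0.146. Each of these moved past its interval, so the size of the ratios depends on the scaling. Mitochondrial counts made up a median of 9.27% in cells of plate 1 and 7.42% in those of plate 2, and the summed G2/M genes were lower on plate 1 in 3 of the 4 bins. Their part in the plate ratios was not tested.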

How the data were processed

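The authors deposited unnormalized counts, with a row per gene and a column per cell. STAR 2.7.11a, SAMtools, bedtools and HTSeq and the build GRCm39 are named, without their roles, per the submitters' processing notes; the annotation, the use of strand and of molecular identifiers are not given in the sources used here. The deposited sort record held fluorescence and scatter intensity values in arbitrary units, the gate and the RFP sort of each cell. Venus gates were ordered by their median intensity at 530 nm within each plate.

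Cells with at least 1000 genes, a total of at least 0.1 of the plate median and no more than 25% of counts from mitochondrial genes entered, which left out 6 of 768. No doublet caller was run on these single-cell sorts, and no barcode was shared by the plates. Features without a symbol held 1.07% of counts. Counts were summed per plate and Venus bin. The 8 sums were tested with edgeR 4.0.16 in R 4.3.3 (TMM, filterByExpr, quasi-likelihood F-test, Benjamini-Hochberg over 18430 genes) in a model of 4 bins and the plate, with 3 residual degrees of freedom and a linear contrast per bin (outer weights 3, inner 1, divided by 10). The plate served as the replicate block because same-numbered sums were sorted and prepared on 1 plate. Calls used an adjusted p of 0.05. On simulated counts for this trend test, 76% of 50 genes changed by 0.1 per bin and 100% of 50 changed by 0.2 were recovered, with 10 false calls among 18430 genes. The simulated counts had the same dispersion for each gene and no plate effect, and only genes with a log2 mean CPM of at least 3 were changed. The rates in the real sums may therefore differ. Intervals on counts treat each read as a separate count and cover no other error. As the use of molecular identifiers is not given, they may be too narrow for amplified reads, which need not count molecules.

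Alternatives were DESeq2 1.42.0, other scaling, gene and cell filters, no block, cells thinned to 300000 counts (8 shallower cells of plate 2 left out), limma 3.58.1 on mean log2(CPM + 1) and an additive linear model. Leaving out a bin was added after seeing the data. Named genes were the 10 members, per list the largest 2 called trends in each direction, and the 5 genes most correlated with Hspa5, Atf4, Ddit3 and Creb3l1. Chac1, Surf4, Col5a1, Cebpb, Phgdh, Shmt2 and Aldh18a1 were further named after their values were seen. The members and lists were chosen with earlier results of these data known. Dnajb9, Vldlr, Krt5 and Kdr were not analysed here.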

Additional observations from a re-analysis of the deposited data

How the results depend on the processing

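Of the 10 genes, 5 passed the trend test as reported, and the same count was found with DESeq2, with no filter on low counts, with no cell filter, with the stricter cell filter and in thinned cells. It was 3 with library totals without TMM and 3 with limma on mean log2 values over cells, 4 with the additive linear model, and 1 with no replicate block, where the pairing of sums by plate is ignored. Without bin 1, 2, 3 or 4 it was 1, 2, 3 and 0. In the test of any bin difference, 1 gene passed as reported, 5 with DESeq2, 2 each with no filter on low counts, in thinned cells and with limma, and 0 with no replicate block. Over all genes, calls in this test were counted only for the setting reported (8.37%). Over the 6 pathway lists 30 genes passed, 13 with no replicate block, 15 with the additive model, 13 without bin 1 and 4 without bin 4, and over all genes 2843 passed, 1683 with no replicate block, 1858 with the additive model, 1145 without bin 1 and 376 without bin 4. Over all genes the trend test called 3569 with DESeq2, 2727 with library totals, 3461 with limma and 2959 in thinned cells. It called 3029 with no filter on low counts, 2835 with no cell filter and 2852 with the stricter cell filter. Without bin 2 the count over all genes was 2168, and without bin 3 it was 2467. Fewer bins leave fewer sums, and otherwise the cause of these differences was not tested.

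Without replicate 1 or 2 trends were computed as values and not tested, and those of the 10 genes kept their sign. Of the 26 genes named from the lists, 3 (Bgn, Fn1 and Trib3) passed without each bin in turn and 23 lost their call without at least 1 bin. Signs turned without bin 4 for Hsp90b1 (-0.002), Calr (-0.006) and Kdelr3 (-0.020), and without bin 1 for Asns (-0.022), Derl1 (-0.016) and the G2/M gene Aurkb (-0.097). With TMM factors the log2 ratio of plate 1 to plate 2 turned positive for Hspa5 (0.042), Calr (0.022), Pdia4 (0.019) and Herpud1 (0.033), so no direction between plates is given for these. The median pair correlation of 0.224 over both plates lay between 0.19 and 0.259 when 1 plate was left out. Depth limits Creb3l1 most, at 2886 and 3426 counts in all on plates 1 and 2.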

Other observations

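The 2 cells with the highest Atf4 were both on plate 1 in bin 4, at 1863 and 1722 CPM, 5.89 and 5.44 times the plate median. Neither was high in Ddit3, at 110.5 and 102.9 CPM (57.4th and 55.4th percentile of the plate). They differed in the ATF4 targets. The first, with 588365 counts and 12637 genes detected, held 865.1 CPM of Asns, 535.4 CPM of Chac1 and 651 CPM of Nupr1, at the 97.1th, 99.7th and 96.9th percentiles. The second, with 456975 counts and 6895 genes, had no count of Asns, Chac1, Trib3 or Nupr1, and its Xbp1 (39.39 CPM) and Sec61b (113.8 CPM) were the lowest of plate 1.

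The cell with the highest Hsp90b1, 4258 CPM on plate 2 in bin 4, was at the 11.1th percentile of its plate in Calr. The cells with the highest Ddit3 were in bin 2 of plate 1 (870.1 CPM, 10.1 times the plate median) and in bin 4 of plate 2 (773.5 CPM, 13.2 times). The latter had also the highest Atf4 of its plate, 1216 CPM, and no count of Xbp1, the 1 such cell among the 762. Single cells have no replicate, and these values are given as found.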
